A study of Homo sapiens with 6 samples.

Results

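The genes of the centromere, the kinetochore and the spindle checkpoint were followed in A2780, a human ovarian cancer cell line, after knockdown of BMI1 or of the long non-coding RNA FAL-1. The list holds 43 genes chosen by name, and 41 of them had a probe set of their own among the 18418 genes measured. CENPA and PMF1 were read only by probe sets that also read a neighbour and are kept apart. Short hairpin RNAs were delivered by lentivirus. Fresh medium with 10% serum replaced the virus after 24 hours, and the cells were taken 96 hours after infection. There were 4 groups on 6 arrays: a BMI1 control, a FAL-1 control, 2 hairpins against BMI1 and 2 hairpins against FAL-1, with 1 array for each control and each hairpin. All groups share the parent line and the infection. What the control viruses carried is given only as control shRNA, and separate cultures or clones are not described.

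The centromere is the chromosome region on which the kinetochore is built. Nucleosomes with the histone H3 variant CENPA mark it, a constitutive inner layer binds these nucleosomes, and an outer layer of NDC80, MIS12 and KNL1 complexes binds spindle microtubules in mitosis. Unattached kinetochores recruit the checkpoint kinases TTK and BUB1 and the proteins BUB1B, BUB3 and MAD2L1, which hold back anaphase, while the Aurora B complex releases wrong attachments. Most of these genes are transcribed mainly in late S phase, G2 and mitosis, so their RNA in a culture depends on how many cells divide. In bulk RNA, fewer dividing cells and less RNA per cell cannot be told apart.

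Many promoters of this gene class carry a CHR element (cell cycle genes homology region) close to the start and CCAAT boxes further upstream. The CHR binds the MuvB complex, which acts as a repressor with the RB family member p130 or p107 and as an activator with MYBL2 and FOXM1, and CCAAT boxes bind NF-Y. RefSeq (GRCh38.p14) windows from 250 bases before to 50 after each annotated start were found for 33 of the 41 genes. The letters searched were TTTGAA and TTCGAA for the CHR, CCAAT for the NF-Y box, and TTTCCCGC, TTTGGCGC and TTTCGCGC for E2F, all on both strands. CHR letters stood in 19 of 33 members (57.6%), against 17.4% of 14240 measured genes with a window and 16.4% of all 35116 windows. Within 50 bases of the start they stood in 17 of 33 members (51.5%), against 5.31% of measured genes. CCAAT stood in 22 of 33 (66.7%, against 42.2%), both in 13 (39.4%, against 7.19%), and E2F letters in 3 (9.09%, against 4.61%). A match is a description of letters, not a site in use. For MIS18A, CENPH, CENPL, CENPM, KNL1, BUB3, TTK and BIRC5 no window was used. The windows below show members with these letters at the start (NDC80, BUB1 and SPC25, at chr18:2571307-2571606, plus strand, chr2:110678014-110678313, minus strand and chr2:168890381-168890680, minus strand) beside CENPT (chr16:67847644-67847943, minus strand), the gene whose RNA stood above its control with all 4 hairpins. Each is written 5′ to 3′ along the gene's strand, with CHR and CCAAT letters on either strand in capitals.
NDC80: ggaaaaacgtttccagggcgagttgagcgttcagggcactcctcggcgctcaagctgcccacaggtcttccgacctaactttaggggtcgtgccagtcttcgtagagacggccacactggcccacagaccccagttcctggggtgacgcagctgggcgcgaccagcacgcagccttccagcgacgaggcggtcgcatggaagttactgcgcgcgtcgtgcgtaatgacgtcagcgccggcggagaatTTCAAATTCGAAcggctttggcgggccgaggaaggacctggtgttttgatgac
BUB1: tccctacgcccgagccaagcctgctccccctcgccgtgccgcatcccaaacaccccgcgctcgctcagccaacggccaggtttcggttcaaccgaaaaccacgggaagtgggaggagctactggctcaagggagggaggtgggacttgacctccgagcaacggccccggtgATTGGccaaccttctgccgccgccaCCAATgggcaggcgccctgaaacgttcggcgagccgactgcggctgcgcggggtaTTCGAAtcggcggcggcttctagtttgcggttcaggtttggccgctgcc
SPC25: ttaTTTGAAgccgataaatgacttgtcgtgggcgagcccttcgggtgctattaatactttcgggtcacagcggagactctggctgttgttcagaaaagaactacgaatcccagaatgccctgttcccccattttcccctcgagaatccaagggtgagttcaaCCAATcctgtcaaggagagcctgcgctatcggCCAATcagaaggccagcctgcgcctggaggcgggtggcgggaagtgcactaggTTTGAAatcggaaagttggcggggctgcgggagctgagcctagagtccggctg
CENPT: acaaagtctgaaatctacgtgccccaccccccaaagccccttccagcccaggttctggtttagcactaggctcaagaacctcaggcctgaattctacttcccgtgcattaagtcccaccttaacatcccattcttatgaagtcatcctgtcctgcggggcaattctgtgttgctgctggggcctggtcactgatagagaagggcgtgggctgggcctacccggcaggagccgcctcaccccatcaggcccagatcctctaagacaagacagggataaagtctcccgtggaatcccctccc

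The NDC80 window holds a pair of abutting CHR matches across the start, at -3 and 4, counted from the first transcribed base as 1 with no base 0. In BUB1 the match begins at 2, with CCAAT letters read on either strand at -79 and -54. In SPC25 it begins at -3, with CCAAT letters at -88 and -56 and a further CHR match at -247. The CENPT window holds none of the letters searched, and neither do those of CENPI, DSN1, NSL1 and CENPE.

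The letters were present in members with low and with high values. The mean log2 change over the 4 hairpins had a median of -0.60 in the 19 members with CHR letters and -0.57 in the 14 without. With CCAAT letters it was -0.56 in 22 members, and -0.64 in the 11 without. By target, the medians with and without CHR letters were -0.47 and -0.55 for BMI1, and -0.72 and -0.56 for FAL-1 knockdown. With and without CCAAT letters they were -0.51 and -0.50 for BMI1, and -0.54 and -0.91 for FAL-1 knockdown. These differences were not tested. CENPN, an inner kinetochore gene with CHR letters at 4, stood at 0.06, and CENPI, with none of the letters, at -0.79.

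Some facts of the whole series bear on these values. The median over probe sets was 6.94 to 7.09 on each array. BMI1 itself, read by a probe set shared with a readthrough transcript, stood at 26.8% of its control with BMI1 hairpin 1 and 64.0% with hairpin 2, and at 99.9% and 79.8% with the FAL-1 hairpins. FAL-1 was not measured here. Of 11 ovarian and epithelial line markers, KRT8, KRT18, CDH2 and VIM were above the gene median of every array, while EPCAM, KRT7, PAX8, WT1, MUC16 and CDH1 were below it on every array. The 4 leukocyte and 3 endothelial markers measured were below it on all arrays, and of 5 fibroblast markers COL1A1, COL1A2, DCN and LUM were above it on all. The mean level of the fibroblast markers was 8.98 and 9.32 on the control arrays and 8.71 to 9.55 on the hairpin arrays. PDGFRB was below its own control with all 4 hairpins (-1.23 to -0.59) and COL1A2 above its own with all 4 (0.18 to 1.19). The other fibroblast markers lay on both sides. With FAL-1 hairpin 2 the 11 line markers changed by -0.01 (EPCAM) to 1.85 (KRT19), with a median of 0.23. What part any of these markers had in the results was not tested. The only spread among arrays of 1 group is that between the 2 hairpins of a target, so p-values measure that spread. It may be technical or come from unlike effects of the 2 hairpins, and each lone control is assumed to vary alike.

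The median RNA level of the list was below the control with each hairpin, by unlike amounts. The median of the 41 members was 81.0% of the control with BMI1 hairpin 1, 63.4% with BMI1 hairpin 2, 93.4% with FAL-1 hairpin 1 and 42.1% with FAL-1 hairpin 2. On the log2 scale these medians were -0.30, -0.66, -0.10 and -1.25, beside -0.01, 0.02, 0.01 and 0.05 over all genes. With BMI1 knockdown 38 of 41 members were below the control with both hairpins, where 30.7% of all genes were. With FAL-1 knockdown 25 of 41 were below with both, where 27.7% of all genes were. The same 25 members were below their own control with all 4 hairpins, where 14.1% of all genes were. Levels on the 4 hairpin arrays lay below both controls, with no overlap, for 17 members, where 8.04% of all genes did so. For the BMI1 hairpins alone this held for 31 members (21.8% of all genes), and for the FAL-1 hairpins alone for 21 (17.2%).

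Taken 1 hairpin at a time, 39 of 41 members were below the control with BMI1 hairpin 1 (51.9% of all genes were) and 39 with hairpin 2 (45.9%). With FAL-1 hairpin 1 the count was 25 (48.5%), and with hairpin 2 it was 40 (42%), CENPT being the exception. Lower by 1.5-fold or more were 5 members with BMI1 hairpin 1 (3.26%), 24 with BMI1 hairpin 2 (3.85%), 1 with FAL-1 hairpin 1 (1.56%) and 35 with FAL-1 hairpin 2 (7.05%). CENPL and CENPT were not below the control with BMI1 hairpin 1, and CENPN and CENPT with hairpin 2.

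**Figure D1:**
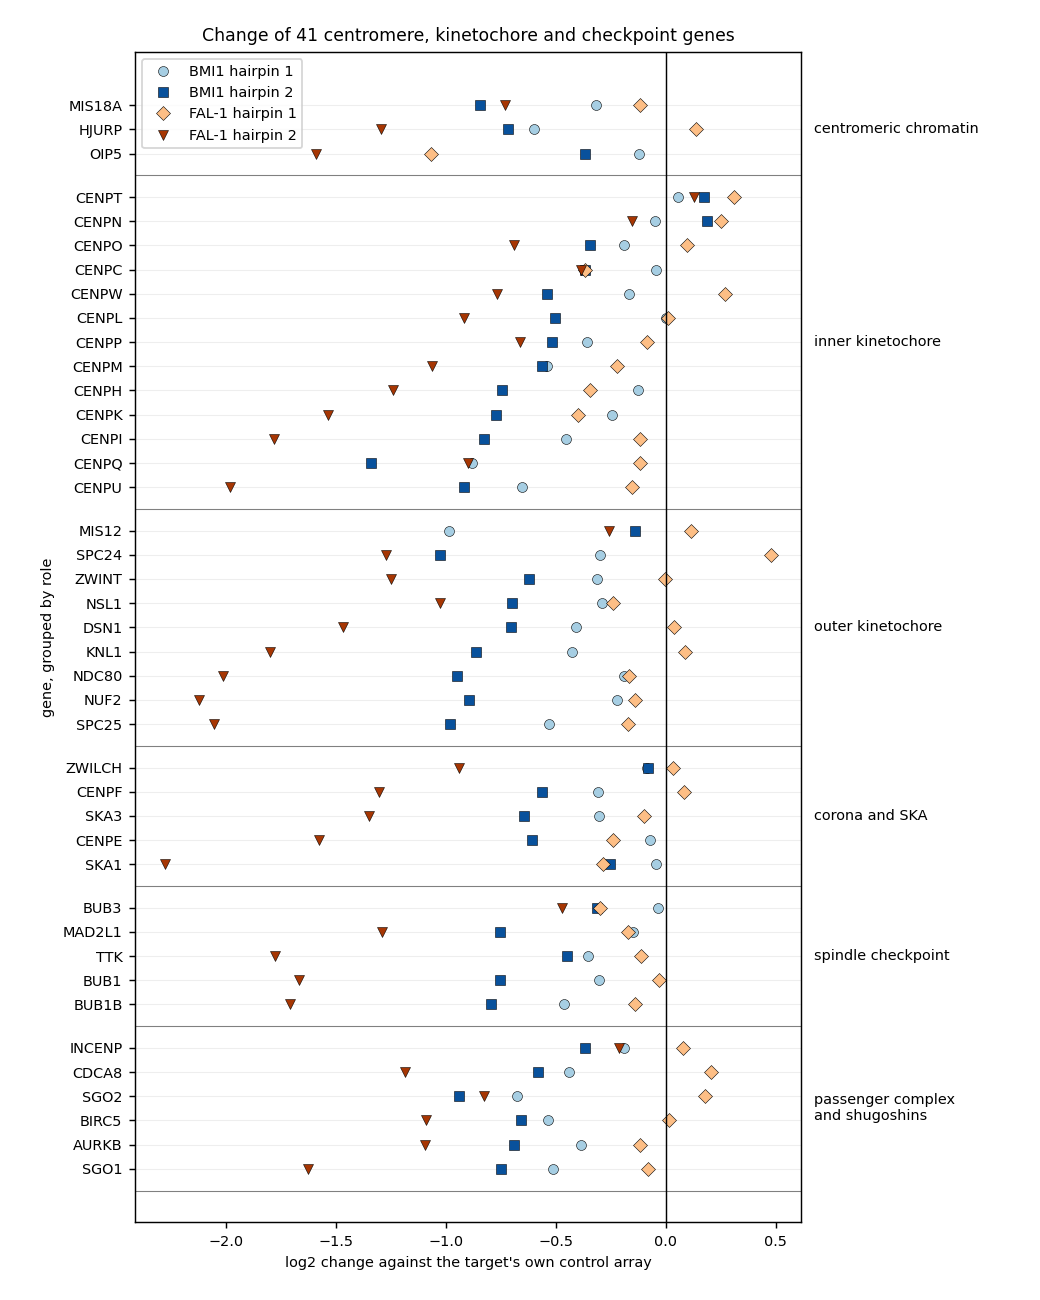
Log2 change of each of 41 members against the target's own control array (x axis), one point per hairpin, with genes grouped by role and ordered by their mean. FAL-1 hairpin 2 lies furthest left for most genes, FAL-1 hairpin 1 lies between -0.40 and 0.48 except for OIP5, and CENPT is the only gene with all 4 points right of 0.

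No single member passed limma's test, in any contrast, after Benjamini-Hochberg adjustment over all genes. For BMI1 knockdown the adjusted p was 0.9998 for every member, for FAL-1 knockdown 0.9991, and for the average over both targets 0.907 to 0.963. No gene outside the list passed either (0% of 18418). Over the settings tried, the lowest adjusted p of any member was 0.888 to 1 for BMI1, 0.276 to 1 for FAL-1 and 0.224 to 0.9999 for the average. At an unadjusted p under 0.05, limma gave 1 member for BMI1 (CENPQ, where 1.56% of all genes were lower at that p), 1 for FAL-1 (OIP5, where 1.5% were) and 2 for the average (CENPQ and OIP5, where 2.87% were). With 1 control against 2 hairpins an exact permutation test cannot give a p under 0.333. The values that follow are therefore descriptions, and the SD is that between the 2 hairpins of a target.

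The genes that place CENPA at the centromere were below the controls on most arrays. HJURP, the chaperone that brings new CENPA to centromeres, read 9.74 on the BMI1 control and 9.14 and 9.02 with BMI1 hairpins 1 and 2. It read 9.41 on the FAL-1 control and 9.55 and 8.12 with the FAL-1 hairpins. Both BMI1 hairpins were thus below both controls, with a mean change of -0.66 ± 0.08 (SD between 2 hairpins), while FAL-1 hairpin 1 lay between the controls. MIS18A, a subunit of the complex that licenses centromeres for loading, read 9.58, 9.27 and 8.74 in the BMI1 set and 9.44, 9.33 and 8.71 in the FAL-1 set, in the order control, hairpin 1, hairpin 2. Its hairpin arrays did not overlap the controls.

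OIP5, the MIS18-beta subunit of that complex, was the exception in its pattern. Its levels were 8.20 on the BMI1 control, 8.08 and 7.83 with the BMI1 hairpins, 8.37 on the FAL-1 control, and 7.30 and 6.78 with the FAL-1 hairpins. With the FAL-1 hairpins it was at 47.7% and 33.2% of the control, and it was the only member lower by 1.5-fold or more with both (0.635% of all genes were). The FAL-1 change was -1.33 ± 0.37 (SD, n = 2 hairpins) and the BMI1 change -0.25 ± 0.18. The difference between targets of -1.08 had an unadjusted limma p of 0.0421 and an adjusted p of 0.9999. The unadjusted p for the average was 0.012, the smallest of the list.
The probe set annotated to both CENPA and SLC35F6 is not counted in these results. It read 9.92, 8.96 and 9.01 in the BMI1 set, and 9.60, 9.76 and 8.19 in the FAL-1 set, in the same order.

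Among the inner kinetochore genes, 10 of 13 were below the control with both BMI1 hairpins and 8 of 13 with both FAL-1 hairpins, where 30.7% and 27.7% of all genes were. The median change was -0.44 with BMI1 knockdown and -0.45 with FAL-1 knockdown. With the FAL-1 hairpins taken singly it was -0.12 with hairpin 1 and -0.90 with hairpin 2. CENPU, which recruits the kinase PLK1 to kinetochores, had the lowest mean of the group. It read 8.85 on the BMI1 control and 8.20 and 7.93 with its hairpins, then 9.17 on the FAL-1 control and 9.02 and 7.19 with its hairpins. CENPQ, a subunit of the same inner complex as CENPU, read 7.57, 6.68 and 6.22 in the BMI1 set and 7.42, 7.30 and 6.52 in the FAL-1 set. It was the member furthest below the control with BMI1 knockdown, at -1.11 ± 0.32 (SD, n = 2 hairpins), or 54.2% and 39.4% of the control. Against the FAL-1 control that value was -0.96. Its BMI1 hairpin levels lay below the median over probe sets, 6.94 to 7.09 on each array. So did levels of other members with FAL-1 hairpin 2, such as SKA1 (6.40), SPC25 (6.38) and CENPH (6.11). How far background bears on such levels was not tested. The difference between targets for CENPQ was 0.60, with an unadjusted limma p of 0.334 (adjusted p = 0.9999).

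CENPC, which connects CENPA nucleosomes to the outer layer, varied less. Its levels were 8.33, 8.29 and 7.96 in the BMI1 set and 8.50, 8.14 and 8.12 in the FAL-1 set. BMI1 hairpin 1 was at -0.04 against its control, and the FAL-1 hairpins gave like values, -0.37 and -0.39.
CENPT, which binds the NDC80 complex through its extended tail, stood on the other side. It read 7.92, 7.97 and 8.09 in the BMI1 set and 8.10, 8.41 and 8.23 in the FAL-1 set. It was above its own control with all 4 hairpins, as were 17% of all genes. The changes were 0.12 ± 0.08 and 0.22 ± 0.13 (SD, n = 2 hairpins). The BMI1 value turned to -0.07 against the FAL-1 control.
CENPN, which reads CENPA nucleosomes, was on both sides: 10.39, 10.35 and 10.58 in the BMI1 set, and 10.55, 10.80 and 10.40 in the FAL-1 set. CENPL, the partner of CENPN, read 8.02, 8.02 and 7.51, and 8.31, 8.32 and 7.39, so only the second hairpin of each target differed from its control. The remaining 7 inner genes (CENPH, CENPI, CENPK, CENPM, CENPO, CENPP and CENPW) had mean changes over 4 hairpins of -0.79 (CENPI) to -0.28 (CENPO).

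**Figure D2:**
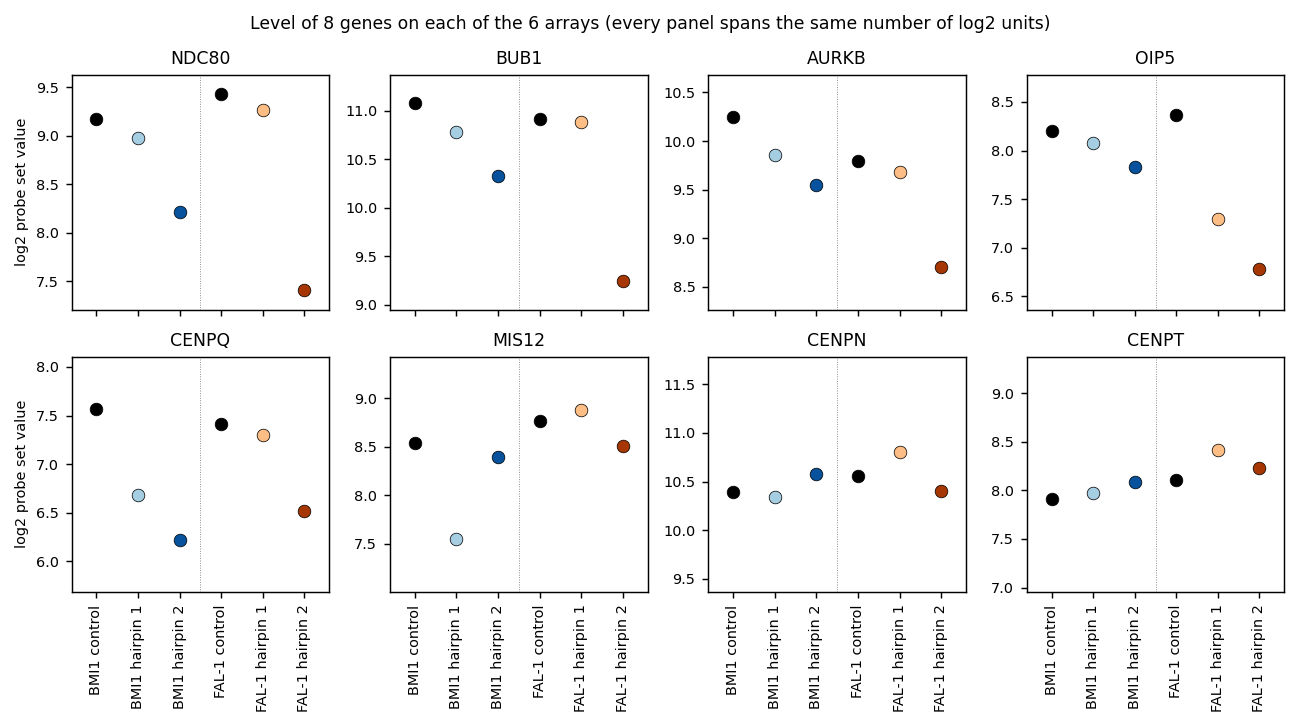
Log2 probe set value of 8 members on each of the 6 arrays, with black points for controls and coloured points for hairpins, and every panel spanning the same number of log2 units. NDC80, BUB1 and AURKB are lowest with FAL-1 hairpin 2, OIP5 is low with both FAL-1 hairpins, CENPQ with both BMI1 hairpins and FAL-1 hairpin 2, MIS12 with BMI1 hairpin 1, while all levels of CENPN lie between 10.35 and 10.80 and those of CENPT between 7.92 and 8.41.

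All 9 outer kinetochore genes measured were below the control with both BMI1 hairpins, where 30.7% of all genes were. With both FAL-1 hairpins 5 of 9 were, where 27.7% of all genes were. The group median was -0.56 with BMI1 knockdown and -0.72 with FAL-1 knockdown. With the FAL-1 hairpins taken singly it was -0.005 with hairpin 1 and -1.47 with hairpin 2. NDC80, whose complex holds the microtubule end, read 9.17 on the BMI1 control and 8.98 and 8.22 with the BMI1 hairpins. It read 9.43 on the FAL-1 control, and 9.26 and 7.41 with the FAL-1 hairpins. FAL-1 hairpin 2 was therefore at 24.7% of its control and hairpin 1 at 89.0%. SPC25, a subunit of the same complex, read 9.07, 8.53 and 8.09 in the BMI1 set and 8.44, 8.27 and 6.38 in the FAL-1 set. The FAL-1 control minus the BMI1 control was -0.63, the largest such gap in the list, so BMI1 hairpin 1 lay above the FAL-1 control. The BMI1 change of -0.76 became -0.13 against the FAL-1 control.

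The other NDC80 complex subunits were also low with FAL-1 hairpin 2. NUF2 was at -2.13 and SPC24 at -1.27 against their control. With FAL-1 hairpin 1 they were at -0.14 and 0.48, the latter the highest log2 change of any member with any hairpin. KNL1, the scaffold that binds BUB1 and BUB3, read 10.03, 9.61 and 9.17 in the BMI1 set and 9.96, 10.05 and 8.16 in the FAL-1 set, where hairpin 1 was above the control by 0.09.

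MIS12, a subunit of the complex that joins inner and outer layers, did not follow the other outer genes. It read 8.54, 7.55 and 8.40 in the BMI1 set and 8.76, 8.88 and 8.51 in the FAL-1 set. The one low array was that of BMI1 hairpin 1, at 50.4% of its control, while hairpin 2 was at 90.7%. The other measured subunits of that complex, DSN1 and NSL1, were lower with BMI1 hairpin 2 (-0.70 and -0.70) than with hairpin 1 (-0.41 and -0.29). The probe set shared by PMF1, the remaining subunit, and its readthrough with BGLAP read 11.00, 10.73 and 10.50, and 10.72, 10.79 and 10.43. ZWINT, a partner of KNL1, had a BMI1 change of -0.47 ± 0.22 and a FAL-1 change of -0.63 ± 0.88 (SD, n = 2 hairpins).

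Of the outermost corona and SKA complex genes, 5 of 5 were below the control with both BMI1 hairpins (30.7% of all genes were). With both FAL-1 hairpins 3 of 5 were (27.7% of all genes). The group median was -0.34 with BMI1 knockdown and -0.72 with FAL-1 knockdown. With the FAL-1 hairpins taken singly it was -0.10 with hairpin 1 and -1.35 with hairpin 2. SKA1, which keeps kinetochores on shortening microtubules, had the lowest log2 change of any member with any hairpin. Its levels were 8.37, 8.32 and 8.12 in the BMI1 set and 8.68, 8.39 and 6.40 in the FAL-1 set, so FAL-1 hairpin 2 was at -2.28 against its control and BMI1 hairpin 2 at -0.25. The difference between targets was -1.13, with an unadjusted limma p of 0.388 (adjusted p = 0.9999). SKA3, its partner, was at -0.65 with BMI1 hairpin 2 and -1.35 with FAL-1 hairpin 2.

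CENPE, a kinesin that carries chromosomes to the spindle middle, read 10.32, 10.25 and 9.72, and 10.04, 9.80 and 8.46. CENPF, a large corona protein, read 11.16, 10.85 and 10.59, and 11.06, 11.14 and 9.75. Both were lowest with FAL-1 hairpin 2, but CENPF stood above its control with FAL-1 hairpin 1. ZWILCH, a subunit of the complex that loads dynein, was near its control with 3 of 4 hairpins. It read 9.85, 9.76 and 9.77 in the BMI1 set and 10.02, 10.05 and 9.08 in the FAL-1 set.

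All 5 checkpoint genes were below their own control with all 4 hairpins, where 14.1% of all genes were. With FAL-1 hairpin 1 their changes were small, from -0.30 to -0.03. The group medians were -0.45 for BMI1 and -0.85 for FAL-1 knockdown. BUB1, a checkpoint kinase, read 11.08, 10.77 and 10.32 in the BMI1 set and 10.91, 10.88 and 9.24 in the FAL-1 set. With FAL-1 hairpin 1 it was at 98.0% of its control and with hairpin 2 at 31.5%. BUB1B (BUBR1), which binds and inhibits the anaphase activator CDC20, read 11.20, 10.73 and 10.40, and 10.88, 10.74 and 9.17. TTK (MPS1), the kinase at the head of the checkpoint, read 9.53, 9.18 and 9.08, and 9.67, 9.55 and 7.89.

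MAD2L1 (MAD2), the protein that closes on CDC20, read 10.29, 10.14 and 9.53, and 10.24, 10.07 and 8.95. For MAD2L1, as for the kinases, the second hairpin of each target gave the lower level. BUB3, which also works outside mitosis, spanned the narrowest range of the group. Its levels were 10.61, 10.58 and 10.30 in the BMI1 set and 10.67, 10.37 and 10.20 in the FAL-1 set. Even with FAL-1 hairpin 2 it was at -0.47, where the other 4 genes of the checkpoint were at -1.78 to -1.29.

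Of the 4 genes of the chromosomal passenger complex and the 2 shugoshins, all 6 were below the control with both BMI1 hairpins, but 2 of 6 with both FAL-1 hairpins, where 30.7% and 27.7% of all genes were. The group median was -0.57 with BMI1 knockdown and -0.52 with FAL-1 knockdown, the latter from 0.05 with hairpin 1 and -1.09 with hairpin 2. AURKB, the Aurora B kinase, read 10.24, 9.86 and 9.55 in the BMI1 set and 9.80, 9.68 and 8.70 in the FAL-1 set. The FAL-1 control minus the BMI1 control was -0.45, and the BMI1 change of -0.54 became -0.09 against the FAL-1 control. BIRC5 (survivin), which docks the complex on chromatin, read 9.07, 8.53 and 8.41, and 8.91, 8.92 and 7.82. Its BMI1 change was -0.60 ± 0.09 (SD, n = 2 hairpins). A dimmer probe set of BIRC5, with levels of 5.55 to 5.76, gave changes of -0.20 to 0.02.

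CDCA8 (borealin) was at -0.44 and -0.58 with the BMI1 hairpins and at 0.20 and -1.19 with the FAL-1 hairpins. INCENP, the scaffold of the complex, had the mean change nearest to 0 of these genes, -0.17 over 4 hairpins. It read 9.00, 8.81 and 8.63 in the BMI1 set and 8.72, 8.80 and 8.51 in the FAL-1 set, and the BMI1 change of -0.28 was 0.00 against the FAL-1 control. SGO1, which protects cohesin at centromeres until anaphase, read 9.57, 9.06 and 8.82, and 9.38, 9.30 and 7.76. SGO2 was lower by 1.5-fold or more with both BMI1 hairpins, at -0.68 and -0.94, and at 0.18 and -0.83 with the FAL-1 hairpins. The other members past that size with both BMI1 hairpins were HJURP, CENPQ and CENPU, so 4 of 41 in all, where 0.901% of all genes were.

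The hairpins of 1 target differed from each other, a comparison that involves no control. With FAL-1 hairpin 2 all 41 members were lower than with hairpin 1, where 43.2% of all genes were, and the median difference was -1.12. With BMI1 hairpin 2, 37 of 41 were lower than with hairpin 1, where 43.3% of all genes were, and the median difference was -0.31. The exceptions were CENPN, CENPT, MIS12 and ZWILCH. With 1 array a hairpin these differences could not be tested. The median of the list for FAL-1 knockdown thus rests on hairpin 2: it was -0.63 for both hairpins, -1.25 with hairpin 2 alone and -0.10 with hairpin 1 alone. FAL-1 hairpin 2 gave the lowest level of the 6 arrays for 36 members, where 17.4% of all genes had it, and lay below BMI1 hairpin 2 for 37 (44.1% of all genes), the exceptions being CENPC, CENPQ, CENPT and MIS12. It was lower than the control by 2-fold or more for 27 members (2.43% of all genes), and with hairpin 1 only OIP5 was (0.201%). BMI1 hairpin 2 was lower by 2-fold or more for CENPQ and SPC24 (0.619% of all genes). It is also the hairpin with the higher remaining BMI1 level, and whether the changes follow that level was not tested.

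**Figure D3:**
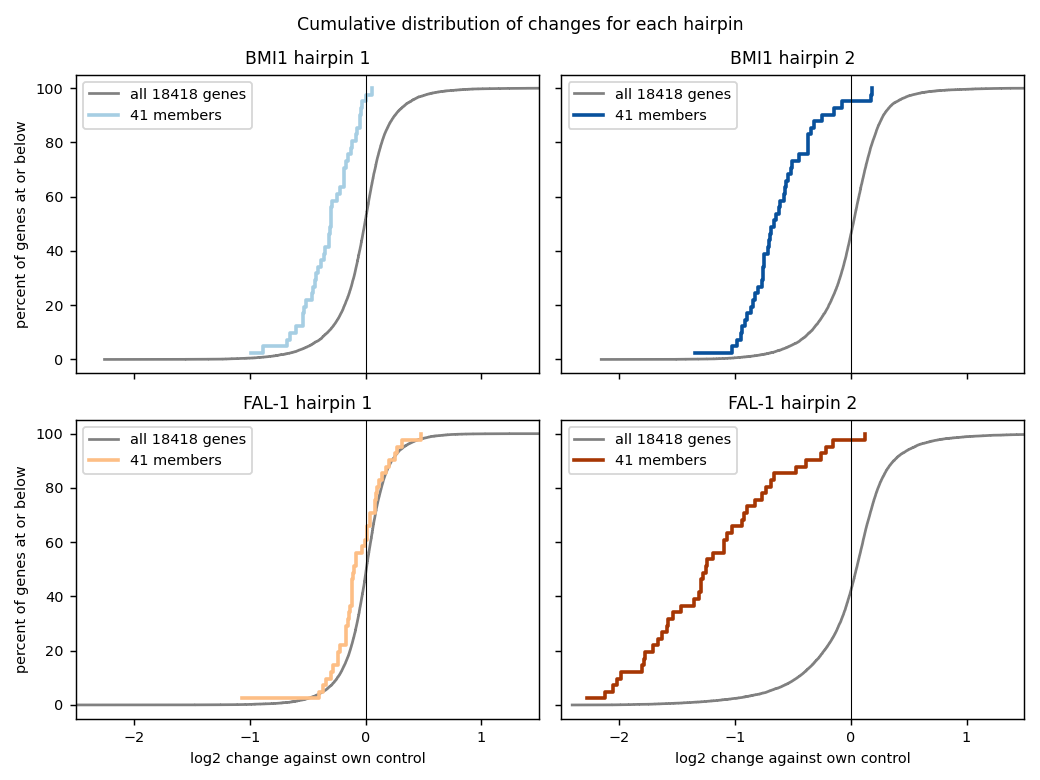
Cumulative percent of genes at or below each log2 change against the own control, for the 41 members (coloured) and all 18418 genes (grey), one panel per hairpin. The members lie left of all genes with BMI1 hairpins 1 and 2 and furthest left with FAL-1 hairpin 2, while with FAL-1 hairpin 1 the curves lie closest.

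Changes with the second hairpins were also set against each other gene by gene. Across the 41 genes, the changes with BMI1 hairpin 2 and FAL-1 hairpin 2, which share no control array, correlated with r = 0.56 (Pearson) and rho = 0.53 (Spearman), beside 0.58 and 0.52 over all genes. For the mean changes of both targets r was 0.34 and rho 0.28 in the list, beside 0.56 and 0.47 over all genes. For BMI1 hairpin 1 against FAL-1 hairpin 2 they were 0.13 and 0.20 in the list. These are correlations across genes, which are not independent, so no p is given. The FAL-1 change minus the BMI1 change was furthest below 0 for SKA1 (-1.13) and OIP5 (-1.08), followed by NUF2 (-0.58), CENPE (-0.57), TTK (-0.54) and NDC80 (-0.52). It was furthest above 0 for CENPQ (0.60), MIS12 (0.49) and SGO2 (0.48). The SKA1 value came from FAL-1 hairpin 2 and the MIS12 value from BMI1 hairpin 1, while OIP5 was low with both FAL-1 hairpins. For none of the 41 did both hairpins of one target lie below and both of the other above their controls. By limma's test of the difference no member passed (adjusted p = 0.9999, with a lowest value of 0.409 to 1 over the settings tried), and OIP5 alone had an unadjusted p under 0.05, as did 0.467% of all genes in that direction.

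**Figure D4:**
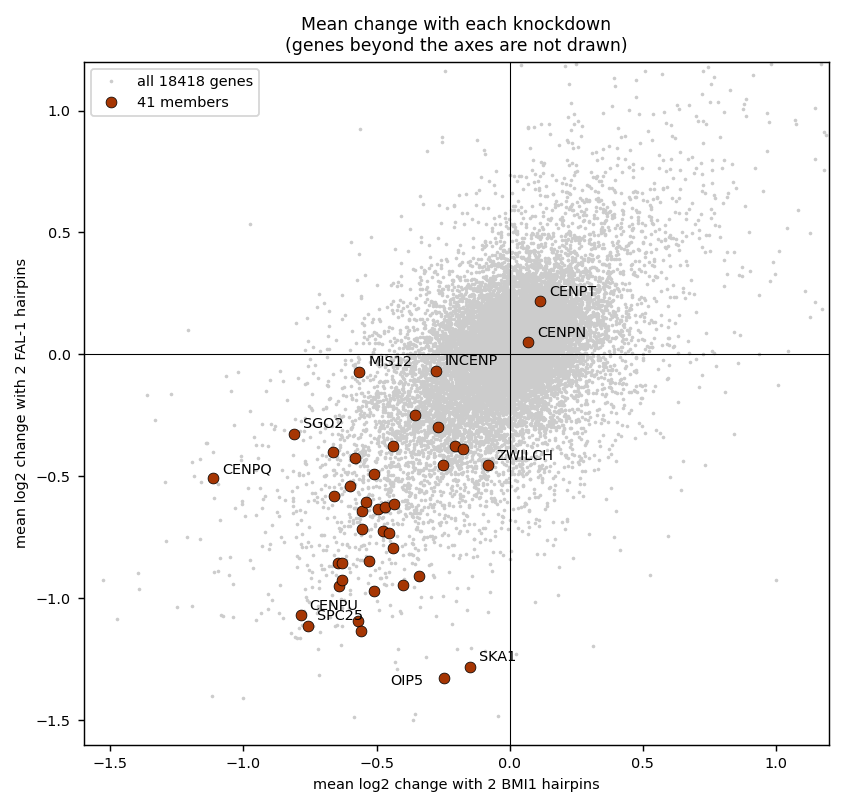
Mean log2 change with 2 BMI1 hairpins (x axis) against that with 2 FAL-1 hairpins (y axis), for 41 members (large points) and all genes (grey). Most members lie in the lower left, OIP5 and SKA1 at the bottom, CENPQ and SGO2 to the left, and CENPT and CENPN near 0.

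The control arrays differed from each other in the list. The FAL-1 control was below the BMI1 control for 24 of 41 members, where 44.9% of all genes were, with a median difference of -0.10 and a range from -0.63 (SPC25) to 0.32 (CENPU). Against the FAL-1 control the BMI1 median was -0.38 instead of -0.51, and against the BMI1 control the FAL-1 median was -0.73 instead of -0.63.

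Other genes of the pathway were listed by name as well. Of 28 further centromere and kinetochore genes, 20 were below the control with both BMI1 hairpins, where 30.7% of all genes were. With both FAL-1 hairpins 14 were, where 27.7% of all genes were. The median of the 28 with FAL-1 hairpin 2 was -0.28. KNTC1, the partner of ZWILCH in the dynein-loading complex, had the lowest mean change over 4 hairpins, -0.70, and NDEL1, a dynein regulator, the highest, 0.39. Of 21 genes of the anaphase promoting complex and its partners, 13 and 9 were below with both hairpins, beside the same 30.7% and 27.7%. ESPL1 (separase), which cuts cohesin, had the lowest mean, -0.76, and CDC16, a constitutive subunit, the highest, 0.07. CDC20 read 10.59, 10.07 and 9.97 in the BMI1 set and 10.31, 10.29 and 9.53 in the FAL-1 set. Of 14 cohesin genes, 9 and 8 were below with both, beside 30.7% and 27.7% of all genes. ESCO2, the acetyltransferase that locks cohesin in S phase, was the lowest at -1.08, and the loader NIPBL the highest at 0.10.

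Regulators of these promoters were read on the same arrays. Of 21 measured, 13 were below the control with both BMI1 hairpins (30.7% of all genes) and 12 with both FAL-1 hairpins (27.7%). Above the control were 4 with both BMI1 hairpins (32.9% of all genes) and 7 with both FAL-1 hairpins (37.2%). FOXM1 read 10.46, 10.23 and 9.85 in the BMI1 set and 10.00, 10.15 and 8.46 in the FAL-1 set. MYBL2 read 10.66, 10.20 and 10.18, and 10.44, 10.41 and 8.94. Both thus had their lowest level with FAL-1 hairpin 2, as did BUB1 and NDC80. RBL1 (p107) and RBL2 (p130), the partners in repression, were below their own control with all 4 hairpins. With FAL-1 hairpin 2 they were at -1.64 and -0.77. The NF-Y genes went both ways. NFYB read 7.75, 7.55 and 7.14 in the BMI1 set and 8.23, 7.71 and 6.64 in the FAL-1 set. NFYA and NFYC were at 0.87 and 0.11 against their control with FAL-1 hairpin 2. E2F2 had the lowest mean change of the regulators, at -0.79. CDKN1A, which encodes the inhibitor p21, had the highest, with levels of 9.50, 10.34 and 10.65 in the BMI1 set and 9.65, 10.17 and 11.70 in the FAL-1 set. The array with the highest CDKN1A level was the one with the lowest member levels, and what part any regulator had in the values of the list was not tested.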

How the data were processed

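The authors deposited 1 table of log2 values, 33252 probe sets by 6 arrays, made with RMA per the submitters' processing notes. RMA corrects background, normalizes between arrays and summarises probes. Its version, and whether 1 run covered every array, were not given in the sources used here. That the scale is log2 was judged from its range.

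A platform annotation named the probe sets: 19460 had 1 symbol, 1754 several and 12038 were not listed. Only those with 1 symbol were used, apart from the shared ones named in the text. Where a gene had several, the brightest on average was taken, which left 18418 genes. A single fit in limma 3.58.1 (R 4.3.3) held the 4 group means, with 2 residual degrees of freedom (lmFit and eBayes, two-sided, Benjamini-Hochberg over all genes at 0.05), and was tested on simulated data. Counts past a control or a fold have no test.

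Members and lists were chosen with earlier results of these data known. By the rule for named genes, all 6 values are printed for HJURP, CENPC, NDC80, KNL1, MIS12, CENPE, CENPF, BUB1, BUB1B, BUB3, MAD2L1, TTK, AURKB, BIRC5 and SGO1, for the lowest and highest member of each role by mean change, and for members past the threshold or on opposite sides of the controls between targets. For the other lists the rule names the lowest and highest gene, with CDC20, FOXM1, MYBL2 and CDKN1A. The values of CENPQ, CENPN and CENPL, other members named outside the rule, the motifs and the printed windows were chosen after values were seen. So were those of RBL1, RBL2, NFYA, NFYB and NFYC. Alternatives were another control, quantile normalization, cyclic loess, averaged probe sets, a filter on dim genes, a variance trend, a replicate block, each hairpin left out and other folds.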

Additional observations from a re-analysis of the deposited data

How the results depend on the processing

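The medians of the list stayed below 0 under every alternative run, between -0.66 and -0.30 for BMI1 knockdown and between -1.25 and -0.10 for FAL-1 knockdown, where the ends of both ranges come from leaving out 1 hairpin. The count of members below the BMI1 control with both hairpins stayed at 33 to 39. Without FAL-1 hairpin 1 or 2 the count below the FAL-1 control was 40 or 25. The count at 1.5-fold or more with both hairpins was less stable. For BMI1 it was 4, with 2 against the other target's control, 2 after quantile normalization, 0 at 2-fold, 23 at 1.2-fold, and 5 to 24 when 1 hairpin was left out. For FAL-1 it was 1, with 3 against the other target's control, 6 at 1.2-fold, and 1 to 35 when 1 hairpin was left out. The cause of the shifts under quantile normalization was not tested.

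Of the mean changes of the 41 members, some turned sign. Against the other target's control the BMI1 change was -0.073 for CENPT, 0.0033 for INCENP and -0.090 for CENPN, and the FAL-1 change of MIS12 was 0.15. Against the mean of both controls it was -0.0099 for CENPN with BMI1 and 0.041 for MIS12 with FAL-1 knockdown. Leaving out 1 BMI1 hairpin gave ranges across 0 for CENPL (-0.50 to 0.0023) and CENPN (-0.048 to 0.19). Leaving out 1 FAL-1 hairpin did so for HJURP (-1.30 to 0.14), CENPL (-0.92 to 0.011), CENPN (-0.15 to 0.25), CENPO (-0.69 to 0.096), CENPW (-0.77 to 0.27), SPC24 (-1.27 to 0.48), KNL1 (-1.80 to 0.088), DSN1 (-1.47 to 0.036), MIS12 (-0.26 to 0.12), CENPF (-1.31 to 0.082), ZWILCH (-0.94 to 0.034), INCENP (-0.21 to 0.078), BIRC5 (-1.09 to 0.013), CDCA8 (-1.19 to 0.20) and SGO2 (-0.83 to 0.18), with the positive end from FAL-1 hairpin 1 alone. The other 633 values under alternatives kept their sign.

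The hairpin numbers do not pair arrays, since hairpins of different targets share only a number. Between targets, hairpin 2 minus hairpin 1 correlated at 0.28 across all genes and 0.43 across the members. The number was also entered as a replicate block, fitted as 1 difference between hairpins 2 and 1 shared by both targets. That term takes up a residual degree of freedom. In this fit 0 members passed limma's test in any contrast. Members with an unadjusted limma p under 0.05 in either direction were 2 for BMI1, 8 for FAL-1 and 10 for the average, instead of 1, 1 and 2. Over all genes these shares were 4.25%, 5.78% and 8.44%, instead of 2.59%, 3.06% and 5.22%. No member passed under any other alternative either. Without FAL-1 hairpin 1, 12 members for BMI1, 34 for FAL-1, 35 for the average and 16 for the difference had an unadjusted p under 0.05, in a fit whose spread comes from the BMI1 pair alone. Over all genes these shares were 4.14%, 10.5%, 12.1% and 3.08%. Without FAL-1 hairpin 2 the counts were 12, 1, 4 and 4, over all genes 4.14%, 2.35%, 4.60% and 1.51%. Quantile normalization and cyclic loess moved the median of all genes by less than 0.1 for every hairpin.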
